A study of Mus musculus with 6 samples.

Results

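The subject was a set of peptidases that sit in the plasma membrane of stromal cells, with neprilysin (Mme) as its leading gene: Mme, Ece1, Ace, Anpep, Enpep, Lnpep, Cpm, Dpp4 and Fap. The set was chosen by gene symbol after the difference between cultures with and without the MEK inhibitor was known, and Mme was one of the genes that had stood out in it. The differences of these genes under MEK inhibition are therefore given as a description, and nothing is inferred from their size. Of the 9 genes, 8 were each named by 1 probe set of the array that names no other gene, out of 28853 probe sets in all, and no probe set was listed for Lnpep.

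Each of 3 independent experiments held 1 culture of MS5 cells, a stromal line from mouse bone marrow, with the MEK inhibitor PD184352 (MEKi, 1 μM, 7 days) and 1 culture with its diluent DMSO alone. The 6 cultures therefore shared one cell line, medium with serum and culture time, and the 3 MEKi arrays were set against the 3 diluent arrays within experiments. Total RNA was hybridised to Affymetrix mouse Gene 1.0 ST arrays, and all levels below are log2 intensities that the authors normalised with the robust multichip algorithm (RMA). A level of one probe set is not comparable with that of another, because probes differ in how strongly they bind.

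Membrane peptidases cut small peptides outside the cell and so set how long a peptide signal lasts. Neprilysin, known on immature lymphocytes as CD10, and endothelin-converting enzyme are zinc enzymes of the same family; the first inactivates substance P, enkephalins, bradykinin and natriuretic peptides, and the second makes active endothelin. Aminopeptidase N (Anpep, CD13), aminopeptidase A (Enpep) and the placental leucine aminopeptidase (Lnpep) remove residues from the amino end, and carboxypeptidase M (Cpm) and angiotensin-converting enzyme (Ace) work from the carboxyl end. Dipeptidyl peptidase 4 (Dpp4, CD26) and fibroblast activation protein (Fap) are serine enzymes that cut after proline, and DPP4 is known to inactivate the chemokine CXCL12, which holds blood-forming cells in the marrow. MEK activates the kinases ERK1 and ERK2, whose nuclear targets include AP-1 and ETS transcription factors.

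The promoters of Mme and Anpep are shown because these were the genes of the set with the largest lower values under MEKi. The windows run from 250 bases before a RefSeq transcription start to 50 bases after it, on the strand of the gene in build GRCm38.p6, at chr3:63295622-63295921 (plus strand, the middle of 3 Mme windows) and chr7:79848161-79848460 (minus strand, the single Anpep window). Capitals mark a match, on either strand, to the AP-1 motif TGACTCA or to the ETS motif GGAAGT, which do not overlap here.
Mme: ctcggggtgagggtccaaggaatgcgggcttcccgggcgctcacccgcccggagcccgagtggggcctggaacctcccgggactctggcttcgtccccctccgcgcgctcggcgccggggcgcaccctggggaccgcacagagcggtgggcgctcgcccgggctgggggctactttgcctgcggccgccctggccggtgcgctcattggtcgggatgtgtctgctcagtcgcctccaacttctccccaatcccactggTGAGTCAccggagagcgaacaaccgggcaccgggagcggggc
Anpep: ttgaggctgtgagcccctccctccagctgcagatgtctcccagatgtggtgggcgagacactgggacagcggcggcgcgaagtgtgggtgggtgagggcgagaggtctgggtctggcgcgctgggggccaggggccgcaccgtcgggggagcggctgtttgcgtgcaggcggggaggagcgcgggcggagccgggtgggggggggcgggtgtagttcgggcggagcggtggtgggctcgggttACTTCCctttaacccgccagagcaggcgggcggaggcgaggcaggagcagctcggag

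Counted from the start base as 0, the AP-1 match of Mme began at position 8, and the third Mme window, which overlaps the one shown by 77 bases, holds the same match at position −215 from its own start. The ETS match of Anpep began at position −7. Windows were searched for Mme, Anpep, Dpp4, Enpep, Ece1, Cpm, Ace and Lnpep, and none for Fap. Of these 14 windows of 8 genes, the AP-1 motif was found in 2, both of Mme, and the ETS motif in 2, of Anpep and Dpp4. Over 32851 windows of all genes, 5.2% held the AP-1 motif and 23.8% the ETS motif. These are matches of letters, and no factor binding was measured.

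Mme was lower with MEKi in every experiment. Its levels were 6.05, 6.02 and 6.32 with MEKi in experiments 1, 2 and 3, against 6.64, 6.81 and 6.88 with diluent. The 3 MEKi cultures lay below the 3 diluent cultures with no overlap, and Mme was the single gene of the set whose groups separated. Over all probe sets 7.86% separated, counting MEKi below and MEKi above together. The share with MEKi below was not counted by itself. The differences within experiments were −0.60, −0.80 and −0.56, an estimate of −0.65 on the log2 scale with a standard error of 0.081 (n = 3 experiments), which is 0.636 of the diluent level. The spread between cultures of a group was smaller than this difference, with means of 6.13 ± 0.17 with MEKi and 6.78 ± 0.12 with diluent (SD, n = 3 each).

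**Figure D1:**
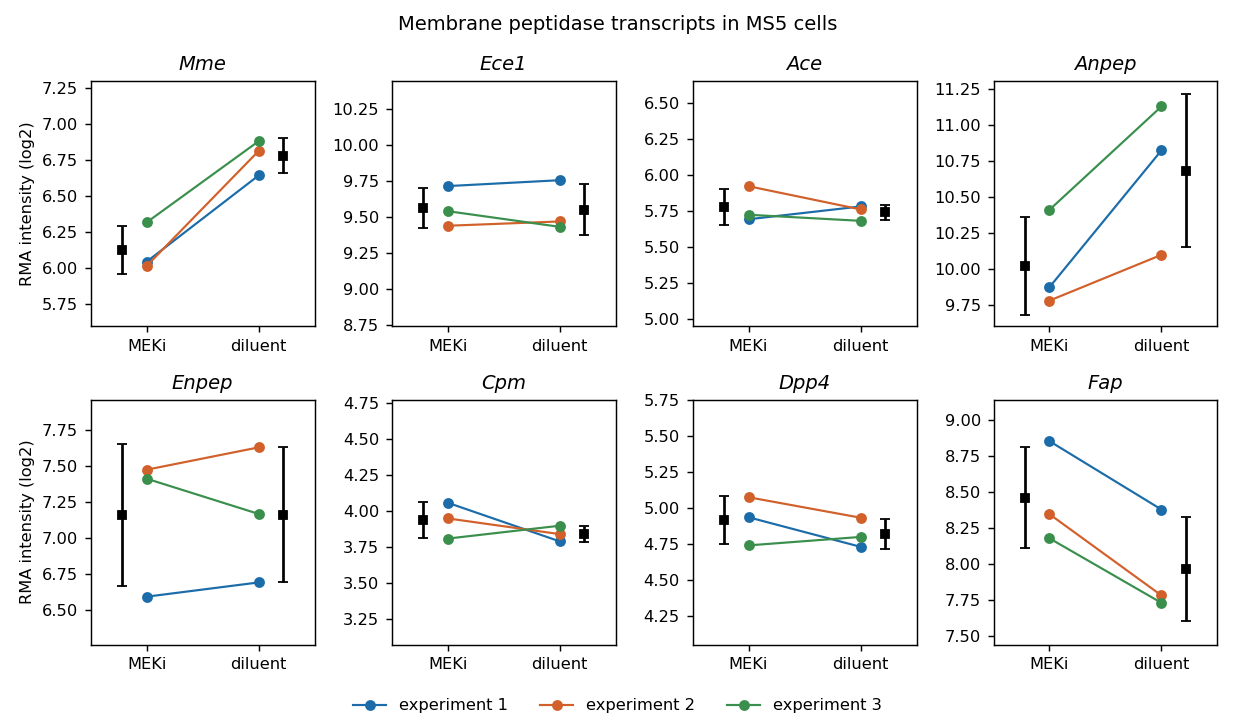
RMA intensities on the log2 scale (y axis, spanning the same 1.7 units in each panel) of the 8 measured peptidases in MEKi and diluent cultures (x axis); each coloured line connects the pair of cultures from one experiment, and black squares with bars are the mean ± SD of 3 cultures. The 3 lines of Mme and of Anpep lie lower at MEKi, those of Fap lie higher, and the lines of the other 5 genes run in mixed directions.

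Ece1 and Ace had estimates near 0. Ece1, the relative of Mme that produces endothelin, was at 9.71, 9.44 and 9.54 with MEKi and at 9.75, 9.47 and 9.43 with diluent in experiments 1, 2 and 3. These levels overlapped throughout, and the estimate for Ece1 was 0.01 on the log2 scale (95% confidence interval −0.17 to 0.19). Ace, which makes angiotensin II and degrades bradykinin, was at 5.69, 5.92 and 5.72 with MEKi and at 5.78, 5.76 and 5.68 with diluent, an estimate of 0.04 (95% confidence interval −0.15 to 0.23). Its differences had no common direction, being −0.09, 0.16 and 0.04.

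Among the aminopeptidases, Anpep had the lowest estimate of the set and Enpep one near 0. Anpep, which trims many small peptides at the cell surface, was at 9.87, 9.78 and 10.41 with MEKi, against 10.82, 10.10 and 11.13 with diluent. It was lower with MEKi in each experiment, by −0.95, −0.32 and −0.72, but the groups overlapped because the diluent culture of experiment 2 lay below the MEKi culture of experiment 3. The estimate for Anpep was −0.66 on the log2 scale (standard error 0.121), or 0.632 of the diluent level, and it ran from −0.83 without experiment 2 to −0.52 without experiment 1. Enpep, the enzyme that converts angiotensin II to angiotensin III, was at 6.59, 7.47 and 7.41 with MEKi and at 6.69, 7.63 and 7.16 with diluent. Its differences were −0.10, −0.16 and 0.24, an estimate of 0.00 with a 95% confidence interval from −0.23 to 0.23. Cpm, which removes a carboxyl-terminal arginine or lysine, was at 4.06, 3.95 and 3.81 with MEKi and at 3.79, 3.84 and 3.90 with diluent, with an estimate of 0.10 (95% confidence interval −0.12 to 0.31).

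The proline-specific enzymes Dpp4 and Fap are neighbours on chromosome 2 in the RefSeq table, with the glucagon gene Gcg as the single protein-coding gene between them, and their values under MEKi were unlike. Fap, a known marker of activated fibroblasts, was at 8.85, 8.34 and 8.18 with MEKi, against 8.38, 7.78 and 7.73 with diluent. It was higher with MEKi in each experiment, by 0.47, 0.56 and 0.45, although the groups overlapped because both cultures of experiment 1 were high. The estimate for Fap was 0.50 on the log2 scale (standard error 0.074), or 1.41 times the diluent level. The SD of its 3 differences, 0.061, was the smallest of the set. Dpp4 was at 4.93, 5.07 and 4.74 with MEKi and at 4.73, 4.93 and 4.80 with diluent, with differences of 0.20, 0.14 and −0.06 and an estimate of 0.10 (95% confidence interval −0.10 to 0.29). Gcg had a log2 estimate of −0.04. Unlike Fap, Dpp4 and Gcg had means below the median of all probe sets, where small changes are hard to measure. Whether these neighbours differ in regulation was not tested.

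**Figure D2:**
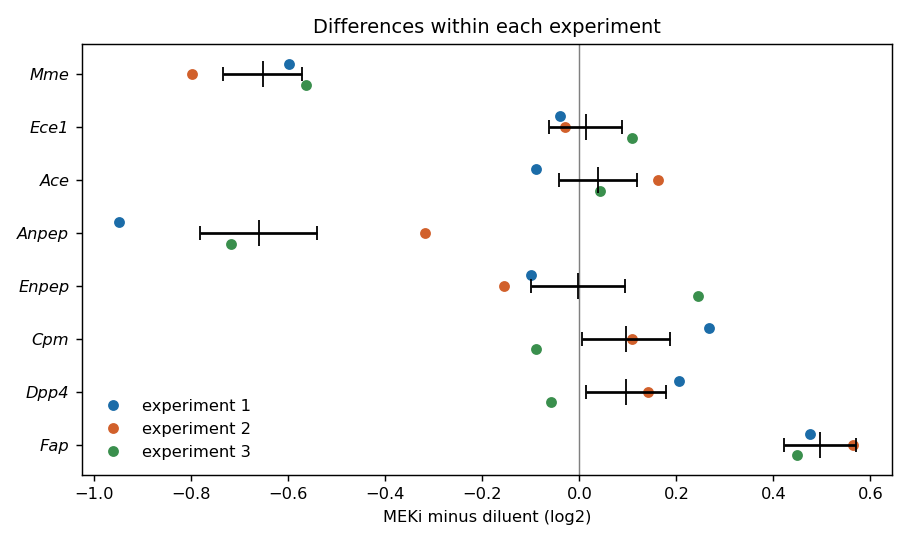
Log2 difference of MEKi from diluent (x axis) of the 8 measured peptidases (y axis), with 1 coloured point per experiment; black bars show the limma estimate ± standard error. All 3 points lie below 0 for Mme and Anpep and above 0 for Fap, while the other 5 genes have points on both sides of 0.

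With limma over all probe sets and the experiment as a block, 1 of the 8 genes, Mme, was called at an adjusted p under 0.05, where 0.159% of all probe sets were called and 0.0555% were called lower. Since Mme entered the set through this contrast, nothing is read from that count. The call was lost without experiment 1, 2 or 3, where the estimate was −0.68, −0.58 and −0.70, and it was kept in 3 of 11 alternative fits; the direction of Mme held in all 11. Lower values in all 3 experiments were seen for 2 of the 8 genes against 7.98% of all probe sets, and higher values for 1 of 8 against 23.8%. The median estimate of the 8 genes was 0.03 and that of all probe sets 0.04, but a median does not show genes at opposite ends. Taken without sign, the median estimates were 0.096 and 0.075. Ranked over all 28853 probe sets, Anpep had the 58th and Mme the 60th lowest estimate, and Fap the 144th highest.

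The experiments themselves offered a comparison that the choice of genes had not used. Levels averaged over the MEKi and diluent cultures of an experiment differed between experiments for 3 of the 8 genes (limma, F test, adjusted p under 0.05), where 7.69% of all probe sets did. The 3 genes had means at or above the median of all probe sets, where such differences were more frequent. Of these 14427 brighter probe sets, fitted alone, 2097 differed. Enpep had experiment means of 6.64, 7.55 and 7.29 in experiments 1, 2 and 3 (adjusted p = 0.0125 from limma), so that experiment 1 lay far below the others in both conditions. Fap had its highest level in experiment 1, with means of 8.61, 8.06 and 7.95 (adjusted p = 0.0126 from limma). Anpep was lowest in experiment 2 and highest in experiment 3, with means of 10.35, 9.94 and 10.77 (adjusted p = 0.0388 from limma).

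For Enpep the range of the experiment means was 0.91 on the log2 scale, for Anpep 0.83 and for Fap 0.66. Those of the other 5 genes ran from 0.07 for Cpm to 0.28 for Ece1, with Mme at 0.26. Enpep, with almost no difference between MEKi and diluent, thus had the widest spread between experiments, and Mme, with a difference of −0.65, had a narrow one. Adjusted p-values for the experiments were 0.272 for Mme, 0.166 for Ece1, 0.334 for Dpp4, 0.629 for Ace and 0.912 for Cpm from limma. Without experiment 1 only Anpep passed, and without experiment 2 or 3 only Enpep and Fap did.

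**Figure D3:**
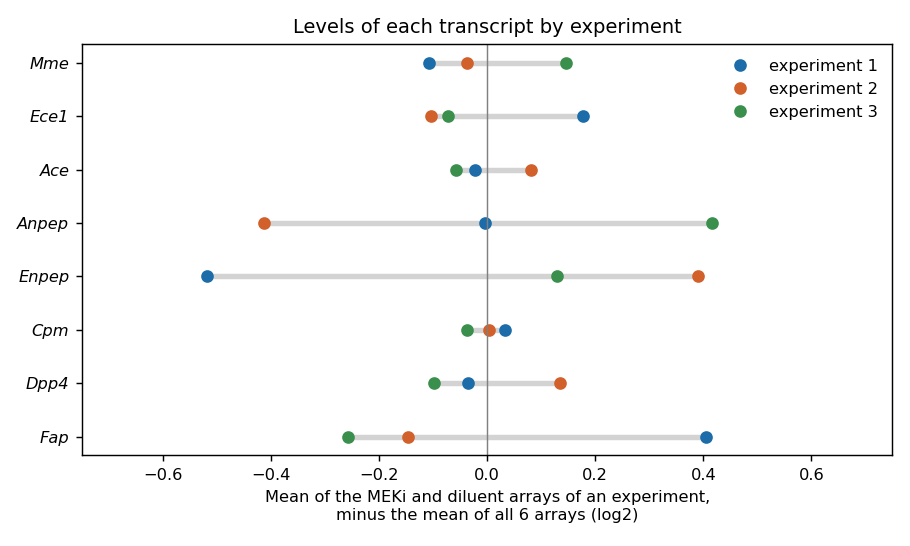
Mean of the MEKi and the diluent array of each experiment minus the mean of all 6 arrays in log2 units (x axis) of the 8 measured peptidases (y axis), with 1 coloured point per experiment and a grey bar for their range. Enpep has its lowest point in experiment 1 and Fap its highest, while the 3 points of Cpm lie within 0.07 of each other.

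Markers of other cell types were read beside these values. The 11 stromal markers averaged between 9.47 and 9.71 with MEKi and between 9.52 and 9.74 with diluent, and 9 of them had a mean at or above the median of all probe sets. The average hid members that ran in opposite directions, 2 lower and 2 higher with MEKi in all 3 experiments. Over all probe sets, 7.98% were lower and 23.8% higher in all 3. Vcam1, an adhesion molecule of marrow stroma, had differences of −0.73, −0.48 and −0.50 (log2 estimate −0.57, adjusted p = 0.0942 from limma) and groups that did not overlap. The hyaluronan receptor Cd44 had an estimate of −0.25 without overlap, against 0.22 for Cxcl12 and 0.22 for Eng, both with overlapping groups.

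All 4 adipocyte markers differed between experiments (limma, F test, adjusted p under 0.05), where 7.69% of all probe sets did. The 4 were among the 14427 brighter probe sets, of which 2097 differed when fitted alone. The mean log2 level of the adipocyte markers was 9.87, 11.52 and 11.29 in experiments 1, 2 and 3, low in experiment 1 as for Enpep. The average of the 4 markers on an array ranged from 10.15 to 11.67 with MEKi and from 9.59 to 11.59 with diluent. Higher values with MEKi in all experiments were seen for 1 of 4, against 23.8% of all probe sets. All 4 had positive estimates, between 0.27 and 0.51, where the median of all probe sets was 0.04 and a positive estimate the commoner sign. An unadjusted p under 0.05 from limma was found for 3, where 9.89% of all probe sets had one, and none of the 4 was called after adjustment. The median of their differences was 0.64, −0.09 and 0.75 in experiments 1, 2 and 3. Of 8 macrophage and leukocyte markers, 3 were lower and 2 higher with MEKi in all 3 experiments, against 7.98% and 23.8% of all probe sets. The average of this list on an array ranged from 6.24 to 6.43 with MEKi and from 6.28 to 6.62 with diluent.

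Cd68, a lysosomal protein abundant in macrophages, followed the order of the experiments seen for Anpep, at 9.69, 8.96 and 10.67 with MEKi and at 10.62, 9.10 and 11.41 with diluent. Cd53, a leukocyte tetraspanin, had differences of −0.65, −1.01 and −0.58. Lyz2, the lysozyme of macrophages, was instead higher with MEKi, by 0.38, 0.27 and 0.62 (log2 estimate 0.42, adjusted p = 0.19 from limma), and its experiment means of 8.66, 7.86 and 7.68 had another order than those of Anpep. Cd14 was also higher in each experiment, with an estimate of 0.25 and no overlap. The defining markers Ptprc, Csf1r, Adgre1 and Itgam had means below the median of all probe sets. So had all 3 measured B lineage markers (Cd79a, Vpreb1 and Rag1), all 4 of endothelium and both of osteoblasts, and 3 of 4 epithelial markers. The part of the stromal, adipocyte and leukocyte markers in the values of Enpep, Anpep and Mme was not tested. In RNA of whole cultures, fewer cells of a type and less RNA per cell cannot be told apart.

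Over the 6 arrays, Mme and Anpep ran together (Pearson r = 0.75) and Mme and Fap ran opposite (r = −0.81). The strongest relation within the set was between Enpep and Ece1 (r = −0.87), and that of Mme with Ece1 was −0.21. These correlations are a description over 6 arrays that share 3 experiments and 2 conditions. Among 6506 genes whose range over the arrays was at least 0.5 of that of Mme, those most like it were Ifi207 (r = 0.96), an interferon-inducible gene, the ETS factor Etv1 (0.94), Sh2d1b2 (0.93), Mpp6 (0.93) and Abhd17c (0.92). Etv1 was at 6.17, 6.53 and 6.62 with MEKi and at 6.86, 7.19 and 7.11 with diluent, as one of the genes taken for their likeness to Mme. The genes most opposite to Mme were the cytokine Il18 (r = −0.98), P3h4 (−0.98) and Rasl11b (−0.98). Il18 was at 7.42, 7.48 and 7.00 with MEKi, against 6.62, 6.63 and 6.37 with diluent.

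None of 53 other genes of peptidases and related proteins, not all of them active enzymes, passed in the comparison of MEKi with diluent (limma, adjusted p under 0.05). At an unadjusted p under 0.05 there were 2, and none with an intensity trend or in the methods' analysis of variance. Of all probe sets 9.89% had an unadjusted p under 0.05, and at 0.159% called after adjustment a count of 0 among 53 is not a result about these genes. The 5 relatives of Mme and Ece1 lay between −0.12 for Mmel1 and 0.15 for Ece2 on the log2 scale. The 8 other M1 aminopeptidases, the family of Anpep and Enpep, ran from −0.21 for Npepps, a cytosolic aminopeptidase, to 0.18 for Aopep. All 8 genes listed beside Dpp4 and Fap (genes of the prolyl oligopeptidase family, and Dpp7) had positive estimates, up to 0.20 for Prepl. Of these, 5 were higher in all 3 experiments, where 23.8% of all probe sets were. Dpp7, outside that family, was 1 of the 5, with differences of 0.06, 0.03 and 0.00. The median of the list was 0.08 and that of all probe sets 0.04, so a positive estimate was the commoner sign on the array. The 16 genes of metallocarboxypeptidases and related proteins stayed between −0.12 for Cpa5 and 0.14 for Cpd, which cuts the same residues as Cpm within the secretory pathway.

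The widest values were among the 16 genes listed as other surface and angiotensin peptidases. Cndp1, a secreted dipeptidase that cuts carnosine, was at 5.61, 6.28 and 6.25 with MEKi, against 5.30, 5.78 and 5.41 with diluent (log2 estimate 0.55, adjusted p = 0.183 from limma). It was higher in each of the 3 experiments, but its groups overlapped. Xpnpep2, a membrane aminopeptidase that cuts before proline, had an estimate of −0.38 that rested on experiment 2, where its difference was −0.99 against −0.03 and −0.13 in experiments 1 and 3. Dpep1, a membrane dipeptidase, had differences of −0.58, −0.05 and 0.15. Unlike Dpep1, Cndp1 and Xpnpep2 had means below the median of all probe sets, where small changes are hard to measure.

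**Figure D4:**
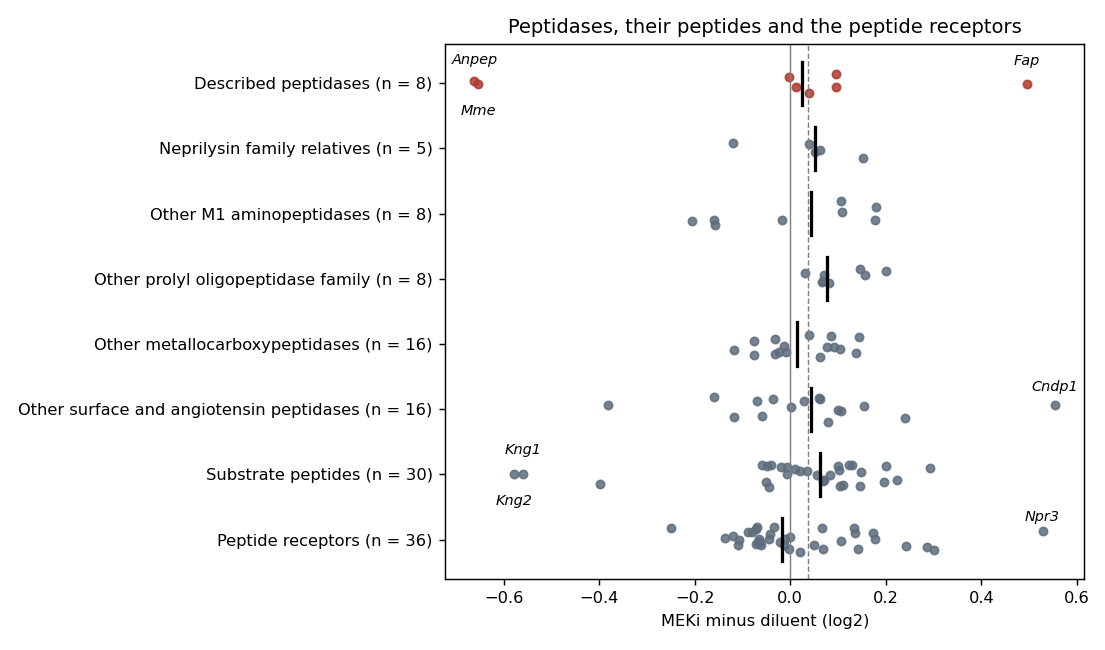
Log2 difference of MEKi from diluent (x axis) of the 8 peptidases described (red), 53 other peptidases and related genes, 30 substrate peptides and 36 peptide receptors (grey), by group (y axis). Each point is a gene, the black bar is the median of a group, the solid line is 0 and the dashed line the median of all probe sets, 0.04. Mme and Anpep lie lower than every other peptidase plotted, and Fap and Cndp1 lie highest among the peptidases.

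None of the 30 substrate peptides and 36 receptors passed either (limma, adjusted p under 0.05; 4 and 3 at an unadjusted p under 0.05, and none with an intensity trend or in the methods' analysis of variance), against the same shares of 9.89% and 0.159% over all probe sets. The kininogens, precursors of bradykinin, had estimates of −0.58 for Kng2 (adjusted p = 0.253 from limma) and −0.56 for Kng1 (adjusted p = 0.413 from limma). Both were lower with MEKi in every experiment, mostly in experiment 1, where the differences were −1.03 and −1.25. Kng1 and Kng2 are close relatives in the mouse, and their probes may share signal. Adm, which encodes the vasodilator adrenomedullin, had opposite signs between experiments, with differences of −0.94, 0.78 and −1.03.

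Agt, the precursor of angiotensin, had an estimate of 0.29, and Cxcl12, a substrate of DPP4, one of 0.22 on the log2 scale (adjusted p = 0.445 from limma). Npr3, the clearance receptor of the natriuretic peptides that neprilysin degrades, was at 10.33, 10.69 and 9.81 with MEKi, against 9.99, 9.83 and 9.43 with diluent. Npr3 was higher in all 3 experiments, by 0.34, 0.86 and 0.39, with an estimate of 0.53 (adjusted p = 0.195 from limma). Oxtr, the receptor of oxytocin, had 0.30 on the log2 scale (adjusted p = 0.302 from limma) and the opioid receptor Oprk1 0.29 (adjusted p = 0.319 from limma). Gipr, a receptor for a gut hormone that DPP4 inactivates, had −0.25 (adjusted p = 0.616 from limma). Its differences changed sign, at −0.56, 0.19 and −0.38. Oxtr, Oprk1 and Gipr each had a mean below the median of all probe sets.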

How the data were processed

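RNA of 6 MS5 cultures was measured on Affymetrix mouse Gene 1.0 ST arrays. The authors normalised the intensities with RMA, and the deposited values are log2 intensities of 28853 probe sets, used as they are; versions of RMA and Partek and the genome build are not given in the sources used here. Medians of the arrays lay between 6.29 and 6.38, and every array column was used. The number of arrays limits the precision.

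Probe sets were named by a table pairing them with symbols: 21789 name 1 gene, 1621 several and 5443 none. A gene with several was represented by the brightest. MEKi minus diluent and the experiment term were fitted in limma 3.58.1 (R 4.3.3) with experiments as blocks. Adjustment was by Benjamini-Hochberg across the whole array. The experiment number pairs the cultures, whose deviations from group means correlated by 0.81, 0.59 and 0.62.

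The genes, the lists of other peptidases and related genes, peptides, receptors and cell markers, the motifs and the naming rule were chosen with earlier results of these data known. The rule names each gene of the set, the 4 largest estimates of a list at most, and the 5 genes most like and 3 most unlike Mme over the arrays. Gcg, as a neighbour of Dpp4, Dpp7, as a gene outside the family of its list, and the defining leukocyte markers were named outside the rule.

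The fit was also run on simulated arrays, with independent normal errors and variances drawn from the fit itself. It called 46 of 67 probe sets changed by 1.5-fold and 66 of 67 changed by 2-fold, with 6 false calls among 184. Because its variances came from the fit, the simulation cannot show how well the fit suits the real arrays. Promoters are from RefSeq, and figures were drawn with matplotlib 3.10.9.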

Additional observations from a re-analysis of the deposited data

How the results depend on the processing

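The 46 probe sets called between MEKi and diluent (30 higher, 16 lower), and with them the call of Mme, were 0 without the replicate block (907 at an unadjusted p under 0.05), 0 where experiments entered as a random block and 0 when arrays were centred by their medians. They were 15 after a further quantile normalisation (4 higher and 11 lower), 25 among brighter probe sets, 115 with an intensity trend and robust prior, and 0 to 37 with 1 experiment left out. The methods' analysis of variance called 0 after Benjamini-Hochberg adjustment, 0 at p of at most 0.0005 with 1.5-fold and 44 at p of at most 0.05 with 1.5-fold. Of the 8 peptidases, 2 (Mme and Fap) were called with the trend. Mme alone was called with array weights and among probe sets that name 1 gene, and 0 were called in the other fits named for limma. Estimates of Mme, Anpep and Fap, and of Dpp4 and Cpm, kept their direction in every fit that held them, and Enpep, Ece1 and Ace, near 0, turned in some. Probe sets that differed between experiments numbered 2218, or 185 to 2379 with 1 experiment left out, and 1 to 2 of the 8 peptidases passed then. The cause of these differences was not tested. Dpp4, Cpm and Ace lay below the median of all probe sets, where small changes are hard to measure.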
